A study of Mus musculus with 12 samples.

Results

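Collagens are the main proteins of the extracellular matrix, and the genes described here encode their chains. The members were all genes whose symbol has the form Col, type number, a, chain number, taken from probe sets to which the platform annotation gives exactly 1 symbol. Where a gene had several probe sets, the one brightest on average over the 12 arrays stood for it. The rule found 36 collagen chain genes among 12393 genes measured. Of these, 9 encode fibrillar chains (types 1, 2, 3, 5 and 11), 6 encode the basement membrane chains of type 4, and 21 encode chains of the remaining types.

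The study asked which genes respond differently to rotenone in mouse embryonic fibroblasts (MEFs) without HtrA2, a protease of the mitochondrial intermembrane space. Rotenone inhibits complex I of the respiratory chain. Primary MEFs at passage 4, from wild-type (WT) mice or HtrA2 knockout (KO) mice, received vehicle or 1 µM rotenone for 4 h. The 4 groups, WT with vehicle, WT with rotenone, KO with vehicle and KO with rotenone, hold 3 arrays each, numbered 1 to 3. The labels used here name no strain, embryonic age or number of embryos. They also do not tie replicates to separate embryos or cultures, and p-values here measure the spread between samples whose differences may be technical only. The WT rotenone arrays carry the word knockout in 1 label field and wild type in their titles, sources and descriptions, and were grouped as WT. The lowest Htra2 value on an array grouped as WT was 8.83 and the highest on a KO array was 7.87, on the log2 scale of the deposited values.

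A collagen molecule is a helix of chains, assembled in the endoplasmic reticulum after hydroxylation of proline and lysine. Fibrillar collagens are secreted as procollagens, trimmed by propeptide proteases and packed into fibrils that lysyl oxidases crosslink. Type 4 chains form the sheet-like network of basement membranes, and the remaining types decorate fibrils, anchor epithelia, form microfibrils or short-chain networks, or span the cell membrane. Fibroblasts are the main producers of fibrillar collagen in connective tissue.

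The promoter stretches of 4 members are printed because these genes stand for the patterns described below. Col1a2 is among the brightest members, Col3a1 differed with the replicate number, and Col7a1 and Col10a1 differed between genotypes in opposite directions on the arrays numbered 1 and 2. Each run holds the 250 bases before the annotated start of the gene, from RefSeq on build GRCm38.p6, plus strand, 5′ to 3′. The capitals mark matches to the CCAAT box (its letters), to TATAAA as the TATA box and to GGGCGG as the GC box, each searched on both strands.
Col1a2, chr6:4505368-4505617: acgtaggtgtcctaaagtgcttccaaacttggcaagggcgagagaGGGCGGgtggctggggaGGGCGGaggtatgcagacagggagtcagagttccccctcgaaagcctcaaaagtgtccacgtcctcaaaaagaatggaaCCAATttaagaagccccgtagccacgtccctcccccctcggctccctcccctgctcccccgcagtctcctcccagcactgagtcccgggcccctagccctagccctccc
Col3a1, chr1:45311288-45311537: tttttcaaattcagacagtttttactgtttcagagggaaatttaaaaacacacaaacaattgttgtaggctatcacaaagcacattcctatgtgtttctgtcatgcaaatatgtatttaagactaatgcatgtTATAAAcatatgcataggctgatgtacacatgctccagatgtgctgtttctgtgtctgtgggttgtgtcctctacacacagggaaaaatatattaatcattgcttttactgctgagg
Col7a1, chr9:108953336-108953585: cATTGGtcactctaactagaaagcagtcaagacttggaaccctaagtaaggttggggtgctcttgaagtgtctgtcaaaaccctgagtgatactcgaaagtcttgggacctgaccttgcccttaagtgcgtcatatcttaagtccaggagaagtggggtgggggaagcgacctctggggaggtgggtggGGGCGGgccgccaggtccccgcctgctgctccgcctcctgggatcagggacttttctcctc
Col10a1, chr10:34389731-34389980: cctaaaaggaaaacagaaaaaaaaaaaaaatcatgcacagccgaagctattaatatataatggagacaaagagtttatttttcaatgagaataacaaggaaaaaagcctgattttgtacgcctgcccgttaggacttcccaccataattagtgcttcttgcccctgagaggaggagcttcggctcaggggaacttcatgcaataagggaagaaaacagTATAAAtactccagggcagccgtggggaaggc

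In these stretches Col1a2 has CCAAT 109 bases before the start and GGGCGG at 205 and 188 bases before it. Col3a1 has TATAAA 117 bases before its annotated start, and Col10a1 has it 32 bases before. Col7a1 has ATTGG, the reverse complement of CCAAT, at 249 bases and GGGCGG at 61 bases before the start. No matches overlap in these stretches. A promoter was found for 27 of the 36 members. CCAAT was present in 12 of them, TATAAA in 5 and GGGCGG in 15. Of all 32851 promoters in the table, 33.8%, 12.4% and 32.7% held these matches. The members were counted as genes, with a match in any promoter of the gene, and the background as single promoters. The shares are thus not the same measure. A match is only a match of letters.

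The values are log2 signals of single probe sets, so levels of different genes are not compared here beyond saying which probe sets were bright or dim. Of the members, 28 had a mean level above 7.01, the 40th percentile over probe sets, and 8 lay below it. All 9 fibrillar members lay above it, as did 4 of 6 type 4 members and 15 of 21 others. The brightest members were probed near the top of the scale: the 12 values of Col1a2 ran from 13.77 to 14.15 and those of Col1a1 from 13.47 to 13.92, where the highest value of any probe set was 14.59. The mean level of 14 fibroblast markers outside the collagens was 9.87 to 10.22 on arrays numbered 1 and 2 and 9.93 to 10.07 on those numbered 3, and 1 of them lay below the 40th percentile. Single markers ran from 5.002 for Tcf21 to 13.99 for Vim. The list means of chondrocyte and osteoblast markers were low on all arrays, at most 6.17 and 5.86. RNA came from whole cultures, so fewer cells of a type and less RNA per cell cannot be told apart.

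Before the comparisons, 1 feature of the arrays has to be stated. The arrays numbered 3 stood apart from those numbered 1 and 2 in all 4 groups, and the first principal component, with 44.7% of the variance, separated them. The labels do not say what the numbers share. Deviations from the group means correlated at 0.29 to 0.83 between arrays of the same number and at -0.69 to 0.48 between arrays of different numbers. Results are therefore given from the fit of 4 group means and, where it changes a call, from the same fit with the number as a block. In what follows the values of a group are listed in the order of numbers 1, 2 and 3.

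Rotenone for 4 h left the collagen genes without a detectable change. Of 36 members, 0 passed an adjusted p of 0.05 (limma, Benjamini-Hochberg over all 22626 probe sets) for the mean effect over genotypes, where 0.217% of all probe sets passed. With the block the count was again 0 of 36, where 2.46% of all probe sets passed. At an unadjusted p under 0.05 there was 1 member without the block and 2 with it. In either genotype alone and for the difference between the genotypes' responses the count was also 0. The backgrounds without the block were 0.0133% in WT, 0.00884% in KO and 0% for the difference, and with it they were 0.628%, 0.301% and 0%. The median effect over the members was 0.05, against 0.03 over all genes. The fibrillar members had a median of 0.02, the type 4 members 0.05 and the others 0.05. The 95% intervals of all 36 members in the blocked fit lay between -0.42 and 0.42, so a mean change beyond about that size was outside the interval of every member.

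Col18a1, which encodes a basement membrane collagen whose end fragment is endostatin, had the largest estimate for rotenone. It read 10.14, 10.24 and 9.48 in WT with vehicle and 10.33, 10.53 and 10.11 in WT with rotenone. In KO it read 10.20, 10.02 and 9.63 with vehicle and 10.22, 10.42 and 9.66 with rotenone. The rotenone array was higher than the vehicle array of the same number in 6 of 6 pairs, although the groups overlapped because both vehicle groups spread over more than the difference. The mean difference was 0.26 (SE 0.08 with the block) with an adjusted p of 0.0966 with the block and 0.7739 without it, so it was not called. A further probe set of Col18a1 gave 0.21 (adjusted p = 0.1110 with the block) and was not called either.

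The other members with large rotenone estimates were not called either. Among fibrillar chains the largest by the brightest probe sets was Col5a3, a type 5 chain, with a mean difference of 0.14 (SE 0.10, higher in 5 of 6 pairs, adjusted p = 0.5462 with the block). Less bright probe sets of fibrillar chains gave larger estimates, also not called with the block. Those of Col5a1 were lower with rotenone, at -0.23 and -0.21 (adjusted p = 0.1485 and 0.2471), and that of Col5a3 was higher, at 0.20 (adjusted p = 0.2275). Those named next belong to the remaining types. Col8a1, a short-chain collagen, read 11.07, 10.71 and 10.85 in WT with vehicle and 10.95, 11.22 and 11.06 with rotenone. In KO it read 11.18, 11.05 and 10.73 with vehicle and 11.33, 11.46 and 10.59 with rotenone. Its mean difference was 0.17 (SE 0.11), with 4 of 6 pairs higher and an adjusted p of 0.517 with the block. Col20a1, a fibril-associated collagen, read 7.83, 7.81 and 7.54 in WT with vehicle, 7.82, 7.998 and 7.89 in WT with rotenone, 7.91, 7.81 and 7.91 in KO with vehicle and 8.03, 8.01 and 7.97 in KO with rotenone. Its mean difference was 0.15 (SE 0.07), higher in 5 of 6 pairs, with an adjusted p of 0.3072. Col22a1, a dim member of the same family, read 5.59, 5.89 and 5.46, then 5.68, 5.87 and 5.75 in WT with vehicle and rotenone. In KO it read 5.74, 5.70 and 5.55, then 5.76, 5.73 and 5.90, and its difference was 0.13 (SE 0.08, adjusted p = 0.4852). For Col7a1, the anchoring fibril collagen whose values follow below, the estimate was -0.13 and the rotenone array was lower in 6 of 6 pairs (adjusted p = 0.6545). Genes that act on collagen were taken from 9 lists named further on. In the blocked fit 1 of 33 regulators was higher with rotenone, Klf4 by 0.46 (adjusted p = 0.0373), and the other 8 lists had none. This count is near the share of all probe sets called in that fit, 2.46%. Of 14 fibroblast markers, Pdgfra was lower by 0.62 and Twist2 by 0.28, beside the same 2.46%.

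The fibrillar chains were close to level across the 4 groups. Col1a1, a chain of the most abundant fibril collagen, averaged 13.67 ± 0.14 in WT with vehicle, 13.70 ± 0.20 in WT with rotenone, 13.84 ± 0.12 in KO with vehicle and 13.74 ± 0.12 in KO with rotenone (SD, n = 3 each, as below). Its partner Col1a2 averaged 13.91 ± 0.13, 13.90 ± 0.08, 13.94 ± 0.14 and 13.96 ± 0.19 in the same order. The group means of these chains differed by no more than the spread within groups. Col5a2 averaged 13.36 ± 0.17, 13.43 ± 0.11, 13.36 ± 0.18 and 13.34 ± 0.16. Col5a3 averaged 10.29 ± 0.38, 10.48 ± 0.43, 10.24 ± 0.20 and 10.32 ± 0.08, and Col11a2 averaged 6.86 ± 0.12, 7.04 ± 0.06, 7.05 ± 0.18 and 7.09 ± 0.10. For Col2a1, Col3a1 and Col5a1 the SD within a group reached 0.62, 0.46 and 0.43, and the values of single arrays below show that this spread followed the replicate number.

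**Figure D1:**
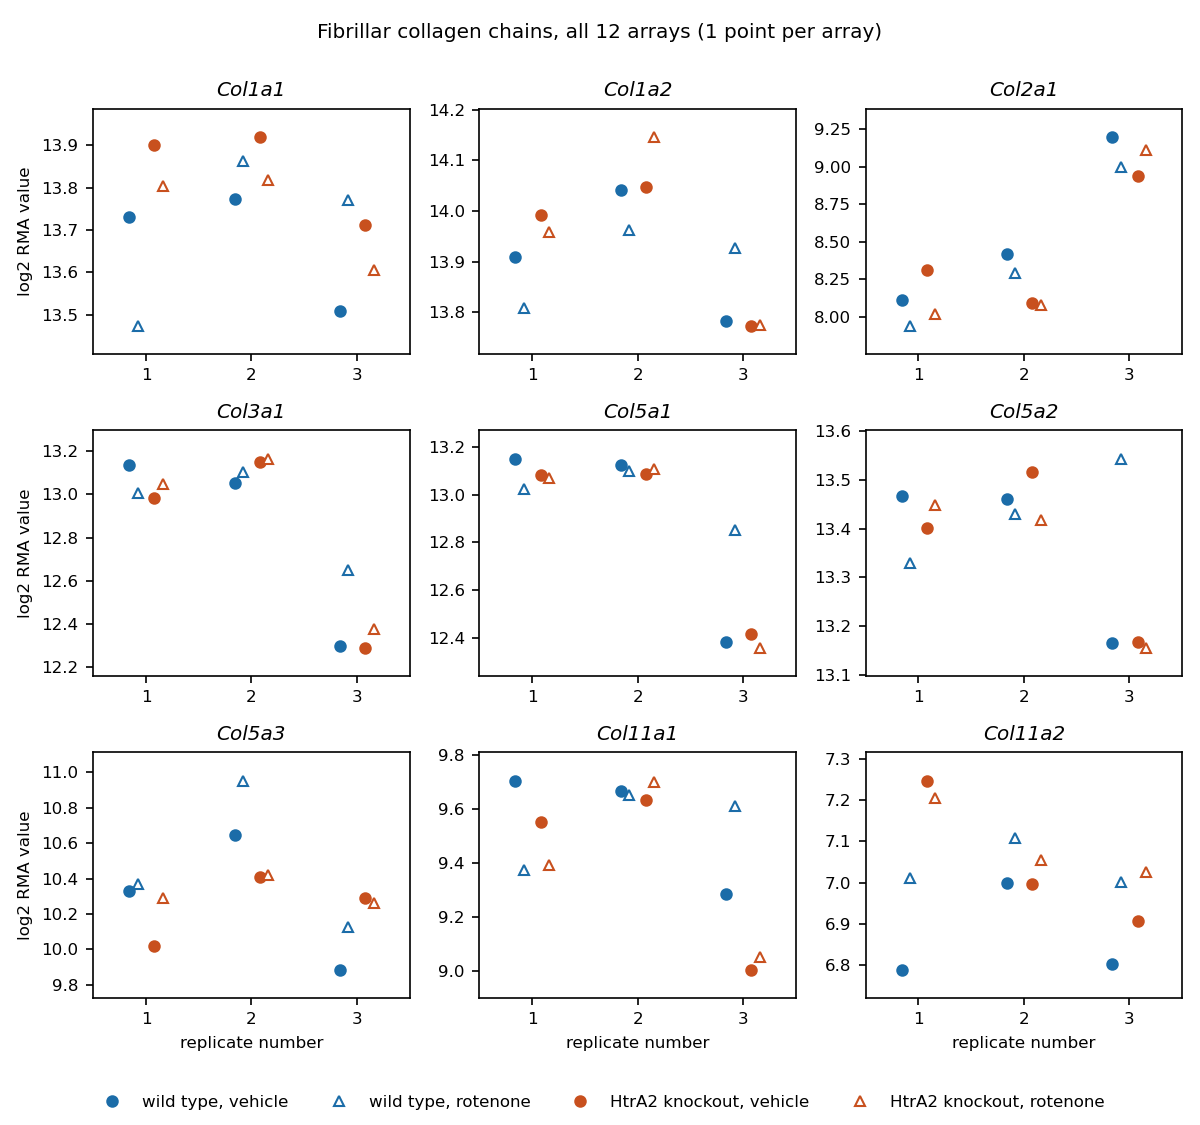
Log2 RMA value of the 9 fibrillar collagen genes on each of the 12 arrays, against the replicate number. Filled circles are vehicle, open triangles rotenone, and colours mark WT and HtrA2 KO. The arrays numbered 3 lie lowest for Col3a1 and Col5a1 (12.29 to 12.65 and 12.36 to 12.85) and highest for Col2a1 (8.94 to 9.20), and the groups overlap for every gene except Col11a2, where WT with vehicle (6.79 to 6.999) lies below WT with rotenone (7.002 to 7.11) and below KO with rotenone (7.03 to 7.20).

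Between the genotypes the fit without the block called 0 of 36 members for the mean over treatments, where 0.00884% of all probe sets passed, and 3 members had an unadjusted p under 0.05. In vehicle alone and in rotenone alone the count was 0 as well, against 0.00442% of all probe sets in each, and it stayed 0 with the block, against 0.0177% and 0.0398%. With the block, 1 of 36 members was called and 0.552% of all probe sets passed. That member was Col10a1, lower in KO by 0.95 on the log2 scale. The median genotype difference, KO minus WT, was -0.05 for fibrillar, 0.10 for type 4 and 0.05 for the other members, against 0.01 over all genes. All 6 type 4 estimates were above 0, from 0.05 to 0.18, but none passed the test.

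Col10a1 encodes the type 10 collagen that is known from hypertrophic cartilage. In WT it read 8.40, 8.19 and 6.55 with vehicle and 7.97, 8.28 and 6.60 with rotenone. In KO it read 6.90, 6.66 and 6.48 with vehicle and 6.66, 6.96 and 6.62 with rotenone. The WT arrays numbered 1 and 2 were the only ones above 7, and the WT arrays numbered 3 lay among the KO arrays. The difference of -0.95 had an SE of 0.19 and an adjusted p of 0.0426 with the block, and an SE of 0.33 and an adjusted p of 0.8092 without it. The KO array was lower in 5 of 6 pairs of the same number and treatment. All 6 KO values were below the 40th percentile of 7.01, a range in which RMA compresses differences. The call with the block was lost when 1 array numbered 1 or 2 was left out, whichever of the 8 it was, and kept when 1 numbered 3 was left out.

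Col7a1 encodes the collagen of the fibrils that anchor epithelium to the tissue below. In WT it read 9.78, 9.81 and 9.48 with vehicle and 9.64, 9.79 and 9.37 with rotenone, and in KO 10.67, 10.56 and 9.40, then 10.40, 10.38 and 9.33. The 4 KO arrays numbered 1 and 2 were above all WT arrays, and the KO arrays numbered 3 were at the level of the WT arrays with that number. The mean difference was 0.48 (SE 0.12, adjusted p = 0.101 with the block). Col14a1, a fibril-associated collagen, behaved alike: WT read 6.88, 7.17 and 6.74, then 7.05, 7.09 and 7.08, and KO read 7.72, 7.85 and 6.84, then 7.67, 7.88 and 6.78. Its mean difference was 0.46 (SE 0.12, adjusted p = 0.1329 with the block), with KO higher in 5 of 6 pairs. A further probe set of Col14a1 had 0.35 and passed with an adjusted p of 0.0450 with the block.

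The remaining members with the largest genotype estimates did not pass. Of the genes that act on collagen, 1 of 5 crosslinking genes and 2 of 19 fibril partners were called in the blocked fit and none of the other 7 lists, where 0.552% of all probe sets were called. The lysyl oxidase gene Loxl3 (-1.02) and the fibromodulin gene Fmod (-0.61) were lower and the dermatopontin gene Dpt (0.61) was higher in KO. Without the block Loxl3 was called and Fmod and Dpt were not. Whether these differences have to do with collagen was not tested. Col9a1, a chain of the collagen that coats type 2 fibrils, read 7.29, 7.36 and 7.01 in WT with vehicle, 7.25, 7.29 and 7.06 in WT with rotenone, 7.38, 7.36 and 7.36 in KO with vehicle and 7.61, 7.31 and 7.46 in KO with rotenone, a difference of 0.21 (SE 0.07, adjusted p = 0.2661 with the block). Its partner chain Col9a2 was dim and read 5.01, 5.21 and 5.08, 4.95, 5.35 and 5.01, 5.34, 5.19 and 5.02, and 5.21, 5.48 and 5.44 in the same order of groups, a difference of 0.18 (SE 0.08, adjusted p = 0.3562). Col15a1, related to Col18a1, read 7.26, 7.59 and 7.39, 7.33, 7.38 and 7.54, 7.36, 7.35 and 7.02, and 7.08, 7.26 and 7.39, with a difference of -0.17 (SE 0.08, adjusted p = 0.3929). The WT and KO values overlapped for all 3 genes.

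**Figure D2:**
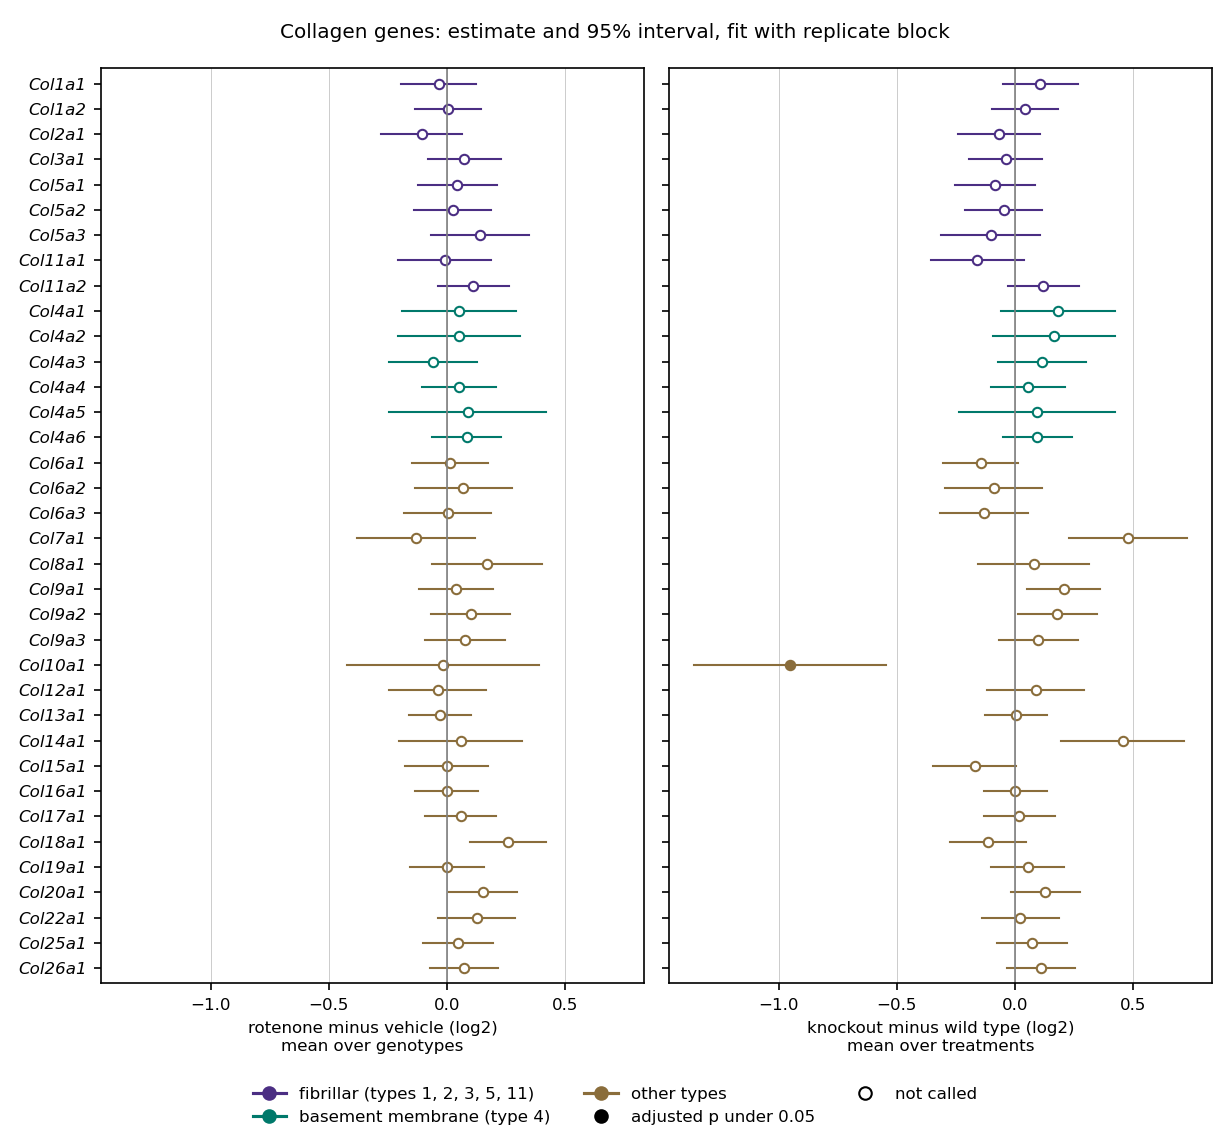
Estimated log2 difference (points) with 95% interval (lines) for the 36 collagen genes in the blocked fit, for rotenone against vehicle on the left and KO against WT on the right. Colours mark fibrillar, type 4 and other members, and a filled point marks an adjusted p under 0.05. Only Col10a1 in the right panel is filled, at -0.95, and in the left panel the intervals stay within -0.42 to 0.42.

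By their brightest probe sets, Col10a1, Col7a1 and Col14a1 differed between genotypes on numbers 1 and 2 and not on number 3. The genotype difference was therefore fitted separately for both sets of arrays, in 1 fit over all 12. This fit was chosen after those values were seen, so its counts describe the pattern that led to it. On numbers 1 and 2, 6 of 36 members were called (5 higher and 1 lower in KO), where 2.66% of all probe sets were called, 1.16% higher and 1.49% lower. On number 3, 0 of 36 were called (7 at an unadjusted p under 0.05), where 0.186% of all probe sets were. For the difference between both, the same 6 members were called, where 1.54% of all probe sets were. By class these were 3 of 6 type 4 members, 3 of 21 other members and 0 of 9 fibrillar members. Among fibrillar members Col5a3 came nearest, at -0.29 on numbers 1 and 2 (adjusted p = 0.0917) and 0.27 on number 3 (adjusted p = 0.2543). Its change between both was 0.56 (adjusted p = 0.0689), against 0.06 (adjusted p = 0.7308) by its less bright probe set.

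Among the type 4 genes, Col4a1 and Col4a2 encode the pair of chains found in nearly all basement membranes. On numbers 1 and 2 Col4a1 read 12.73 and 12.81 in WT with vehicle, 12.46 and 12.75 in WT with rotenone, 12.98 and 13.11 in KO with vehicle and 13.08 and 13.23 in KO with rotenone. On number 3 it read 12.85 and 13.18 in WT and 12.69 and 12.77 in KO, with vehicle and rotenone. All 4 KO values were thus above the 4 WT values on numbers 1 and 2, and both were below them on number 3. The difference was 0.41 (SE 0.09, adjusted p = 0.0132) on numbers 1 and 2 and -0.29 (SE 0.13, adjusted p = 0.2546) on number 3. The second probe set of Col4a1 gave 0.41 on numbers 1 and 2 (adjusted p = 0.0048), and its change of the difference between both sets of arrays, -0.69, also passed (adjusted p = 0.0130).

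Col4a2 read 11.97 and 12.07, 11.61 and 12.24, 12.23 and 12.40, and 12.40 and 12.48 on numbers 1 and 2 in the same order of groups. On number 3 it read 11.96 and 12.24 in WT and 11.80 and 11.78 in KO. The difference was 0.41 (SE 0.10, adjusted p = 0.0314) on numbers 1 and 2 and -0.31 (SE 0.14, adjusted p = 0.2590) on number 3. The order of the genotypes was the same as for Col4a1, except that 1 WT array with rotenone, at 12.24, lay among the KO arrays.

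Col4a5 encodes a chain of the type 4 molecules found in fewer tissues, such as the glomerulus. It read 9.49, 9.33 and 8.87 in WT with vehicle, 9.30, 9.30 and 9.22 in WT with rotenone, 9.42, 10.02 and 8.39 in KO with vehicle and 9.81, 9.88 and 8.54 in KO with rotenone. The 3 highest values were KO arrays numbered 1 or 2, and the 2 lowest were the KO arrays numbered 3. The difference was 0.43 (SE 0.11, adjusted p = 0.0403) on numbers 1 and 2 and -0.58 (SE 0.16, adjusted p = 0.0997) on number 3. A second probe set of Col4a5 was not called on numbers 1 and 2, at 0.30 (adjusted p = 0.0937), and passed for the change of the difference, at -0.71 (adjusted p = 0.0223).

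The other type 4 chains showed no such pattern. Col4a3 averaged 6.86 ± 0.24, 6.79 ± 0.09, 6.97 ± 0.16 and 6.91 ± 0.13 in WT with vehicle, WT with rotenone, KO with vehicle and KO with rotenone. Col4a4 averaged 5.85 ± 0.28, 5.87 ± 0.12, 5.87 ± 0.04 and 5.96 ± 0.07, and Col4a6 averaged 7.01 ± 0.20, 7.05 ± 0.04, 7.06 ± 0.13 and 7.19 ± 0.15. Both Col4a3 and Col4a4 were dim, and Col4a6 lay just above the 40th percentile.

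For Col7a1, Col14a1 and Col10a1 the genotype difference by the brightest probe set was near 0 on number 3. Col7a1 was higher in KO by 0.75 (SE 0.08, adjusted p = 9.14e-06) on numbers 1 and 2, a 1.68-fold difference, and had -0.06 (SE 0.11) on number 3. Col14a1 was higher in KO by 0.73 (SE 0.08, adjusted p = 1.83e-05), a 1.66-fold difference, against -0.10 (SE 0.12). Its WT values on numbers 1 and 2, from 6.88 to 7.17, lay near the 40th percentile of 7.01, so this fold may be understated. The second, dim probe set of Col14a1 gave 0.43 (SE 0.08, adjusted p = 0.0054) on numbers 1 and 2, a 1.35-fold difference. On number 3 that probe set gave 0.20 (SE 0.12, adjusted p = 0.3879). Col10a1 was lower in KO by 1.42 on the log2 scale (SE 0.10, adjusted p = 6.22e-08), against -0.03 (SE 0.14). No fold is given for Col10a1, since all its KO values lie in the dim range and their signal over background is unknown. By the brightest probe sets, the calls of Col7a1, Col14a1 and Col10a1 on numbers 1 and 2 held when any 1 of the 12 arrays was left out. The type 4 calls did not: without the WT rotenone array 1, the KO rotenone array 1 or the KO rotenone array 2, the count on numbers 1 and 2 was 3, namely Col7a1, Col10a1 and Col14a1. For the change between both sets of arrays the count fell to 2 without the WT rotenone array 3 (Col7a1 and Col10a1), without the KO vehicle array 3 (Col10a1 and Col14a1) or without the KO rotenone array 3 (Col7a1 and Col10a1).

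**Figure D3:**
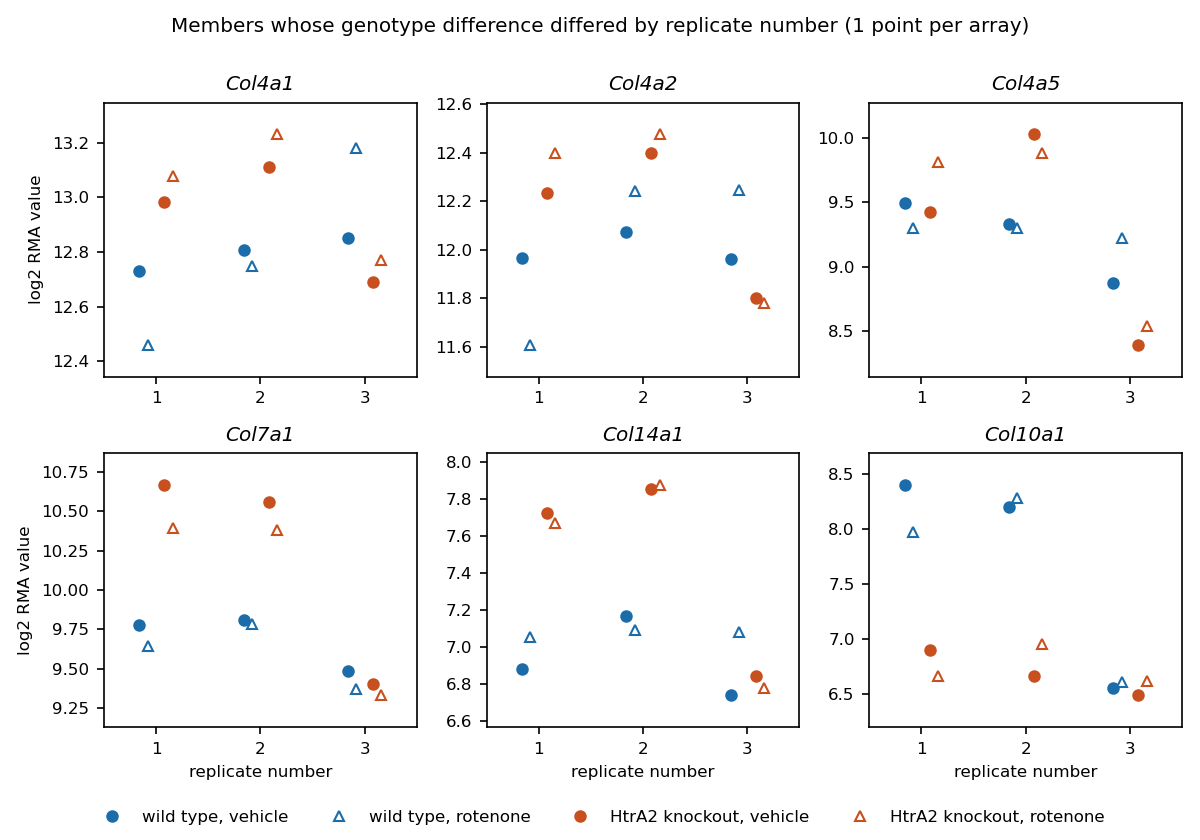
Log2 RMA value on each of the 12 arrays against the replicate number for the 6 members whose genotype difference changed with the number. Filled circles are vehicle, open triangles rotenone, and colours mark WT and HtrA2 KO. For Col7a1 and Col14a1 the KO arrays numbered 1 and 2 lie above all others, for Col10a1 the WT arrays numbered 1 and 2 do, and for Col4a1, Col4a2 and Col4a5 the KO arrays lie below the WT arrays on number 3.

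**Figure D4:**
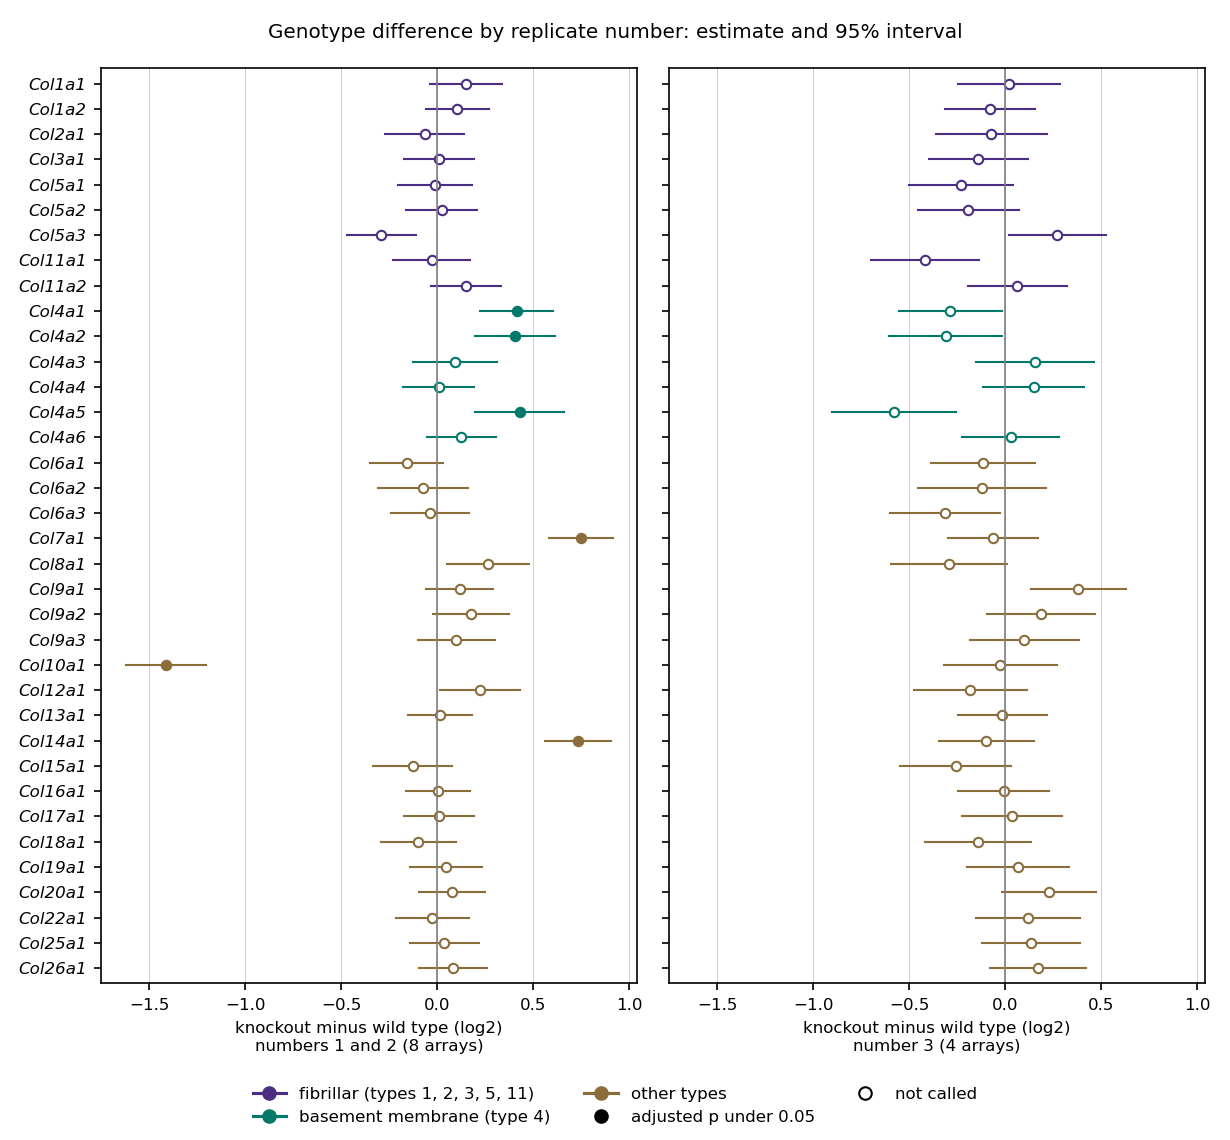
Log2 difference, KO minus WT (points), with 95% interval (lines) for the 36 collagen genes, on the 8 arrays numbered 1 and 2 (left) and the 4 arrays numbered 3 (right). Filled points mark an adjusted p under 0.05: 6 on the left, from -1.42 for Col10a1 to 0.75 for Col7a1, and 0 on the right.

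Genes whose products act on collagen were set beside the members in the same fit, from lists chosen with earlier results of these data known. On numbers 1 and 2, 1.16% of all probe sets were higher and 1.49% lower in KO, and on number 3 0.186% were called. Some list counts below, such as that of the regulators, are near these shares. Of 7 propeptide processing genes, 2 were higher in KO on numbers 1 and 2, Bmp1, a procollagen C-proteinase, by 0.44 (adjusted p = 0.0044) and its relative Tll1 by 0.58 (adjusted p = 3.11e-04). Of 5 crosslinking genes, Loxl3, a lysyl oxidase, was lower in KO on numbers 1 and 2 by 0.94 and on number 3 by 1.20, and was called in both. No collagen member was called on number 3, and whether the Loxl3 difference has to do with collagen was not tested. Transglutaminase Tgm2 was higher by 0.60 on numbers 1 and 2 and lower by 0.66 on number 3, also called in both. Of 19 fibril partners, the dermatopontin gene Dpt (0.66) and Thbs2 (0.46) were higher, and the small proteoglycans Fmod (-0.91) and Lum (-0.54) were lower, on numbers 1 and 2, and Ogn was lower on number 3 (-0.86). The calls named next are all on numbers 1 and 2. Of 15 basement membrane partners, Lama1 (0.34), Nid1 (0.31) and Agrn (0.36) were higher and Lama5 (-0.38) was lower. Of 7 receptors Mrc2 was higher (0.39), and of 14 breakdown genes Mmp9 (0.59) and Fap (0.74) were higher and the inhibitor Timp1 (-0.41) was lower. Of 33 regulators Tgfb2 was higher (0.30) and Scx, a tendon transcription factor, was lower (-0.55). None of the 12 hydroxylation and glycosylation genes and none of the 18 folding and secretion genes was called in this fit.

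Some markers of other cell types differed with the genotype on numbers 1 and 2 as well, where 1.16% of all probe sets were higher and 1.49% lower in KO. Most markers of each list below were not called. Of 11 endothelial markers, Emcn (0.78) and Flt1 (0.52) were higher in KO, and of 11 epithelial markers Krt18 (0.49) was. Of 7 adipocyte markers Lpl was higher (0.48) and Fabp4 lower (-0.86), and of 9 smooth muscle and myofibroblast markers Des (0.34) and Lmod1 (0.34) were higher. Of 14 fibroblast markers 4 were higher (Pdgfrb, Twist2, Fap and Dpt) and 2 lower (S100a4 and Lum). Of these, Fap, Dpt and Lum are the same probe sets already named among the genes that act on collagen. Of 10 neural and Schwann markers Stmn2 was lower (-0.37). None of 11 chondrocyte markers, 5 osteoblast markers, 11 leukocyte markers or 11 skeletal muscle markers was called. The part of these markers in the collagen differences was not tested.

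The split that held most collagen calls was the replicate number itself. With group and number in 1 fit, 14 of 36 members differed between the arrays numbered 3 and those numbered 1 and 2, where 23.9% of all probe sets did. Of these, 13 were lower on number 3, or 36.1% of members, where 11.3% of all probe sets were lower, and 1, Col2a1, was higher, where 12.6% of all probe sets were. This contrast was chosen with the split known. The median over members was -0.17 and over all genes -0.04. Below 0 were 34 of 36 member estimates and 7349 of 12393 over all genes. By class, 3 of 9 fibrillar members were lower and 1 higher, 1 of 6 type 4 members was lower, and 9 of 21 others were lower. No member below the 40th percentile was called. Number 3 minus number 1 called 12 members (18.4% of all probe sets), number 3 minus number 2 called 15 (20.2%) and number 2 minus number 1 called 0, with 2 at an unadjusted p under 0.05 and 0.256% of all probe sets called.

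Col3a1, a fibril collagen of skin and vessels, read 13.13, 13.05 and 12.30 in WT with vehicle, 13.00, 13.10 and 12.65 in WT with rotenone, 12.98, 13.15 and 12.29 in KO with vehicle and 13.05, 13.17 and 12.38 in KO with rotenone. The 8 arrays numbered 1 and 2 lay between 12.98 and 13.17, and all 4 numbered 3 lay below them. The difference was -0.68 (SE 0.08, adjusted p = 1.45e-05), a 1.60-fold lower signal. Its second probe set gave -1.05. Col5a1, a chain of the collagen that sets the diameter of fibrils, read 13.15, 13.12 and 12.38, 13.02, 13.10 and 12.85, 13.08, 13.09 and 12.42, and 13.07, 13.11 and 12.36 in the same order, a difference of -0.59 (SE 0.08, adjusted p = 1.31e-04). Its other probe sets gave -0.85 and -0.79. No array numbered 3 reached the range of the others for either gene.

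Col11a1, a chain of a minor fibril collagen, read 9.71, 9.67 and 9.28, 9.37, 9.65 and 9.61, 9.55, 9.63 and 9.01, and 9.39, 9.70 and 9.05. The difference was -0.35 (SE 0.10, adjusted p = 0.0179), and the WT rotenone array numbered 3, at 9.61, lay within the range of numbers 1 and 2. Its second probe set was not called, at -0.26 (adjusted p = 0.2082). Averaging its probe sets ended its call, at -0.30. Leaving out the WT vehicle, the KO vehicle or the KO rotenone array numbered 3 ended the call of Col11a1 and of Col6a3, with estimates of -0.33, -0.27 and -0.30 for Col11a1 and -0.28, -0.26 and -0.32 for Col6a3.

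Col2a1, the gene of the cartilage fibril collagen, went the other way. It read 8.11, 8.42 and 9.20 in WT with vehicle, 7.94, 8.29 and 8.996 in WT with rotenone, 8.31, 8.09 and 8.94 in KO with vehicle and 8.02, 8.07 and 9.11 in KO with rotenone. Every array numbered 3 was above every other array. The difference was 0.90 (SE 0.09, adjusted p = 2.38e-06), a 1.87-fold higher signal, from the only probe set of the gene. Of 11 chondrocyte markers outside the collagens, 0 were higher and 1, Chad (-0.23), was lower on number 3. Sox9, the regulator of cartilage genes, had -0.26 (adjusted p = 0.0837), and Acan, the main cartilage proteoglycan, had 0.12 (adjusted p = 0.1963).

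The type 1 chains did not pass by their brightest probe sets, with -0.14 for Col1a1 (adjusted p = 0.2228) and -0.17 for Col1a2 (adjusted p = 0.0924). Their less bright probe sets did: that of Col1a1 gave -0.32 (SE 0.08, adjusted p = 0.0061) and that of Col1a2 gave -0.35 (SE 0.07, adjusted p = 0.0013). The brightest probe sets lie near the top of the scale, as given above, and whether that limits their differences was not tested. Col8a1 likewise had -0.32 (adjusted p = 0.0604) by its brightest probe set and -0.69 (adjusted p = 1.91e-04) by the other. Counting any probe set, 16 members were lower on number 3.

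The microfibril collagen of type 6, made by fibroblasts and pericellular in most tissues, was lower on number 3 in all 3 chains measured. Col6a1 read 12.45, 12.55 and 11.78, 12.28, 12.57 and 12.17, 12.27, 12.42 and 11.86, and 12.28, 12.25 and 11.86, a difference of -0.47 (SE 0.08, adjusted p = 5.70e-04). Col6a2 read 12.62, 12.77 and 11.79, 12.56, 12.61 and 12.53, 12.46, 12.70 and 12.05, and 12.42, 12.67 and 12.02, a difference of -0.50 (SE 0.10, adjusted p = 0.0022). Col6a3 read 12.39, 12.60 and 12.02, 12.24, 12.56 and 12.49, 12.47, 12.49 and 11.93, and 12.24, 12.43 and 11.96, a difference of -0.33 (SE 0.09, adjusted p = 0.0169). For Col6a2 and Col6a3 the WT rotenone array numbered 3, at 12.53 and 12.49, lay within the range of the other numbers.

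Among fibril-associated collagens, Col12a1 read 10.75, 10.70 and 10.25, 10.46, 11.03 and 10.43, 11.09, 11.04 and 10.17, and 10.72, 10.98 and 10.14, a difference of -0.60 (SE 0.10, adjusted p = 5.87e-04). Col16a1 read 9.58, 9.79 and 9.14, 9.39, 9.81 and 9.15, 9.53, 9.71 and 9.12, and 9.47, 9.88 and 9.15, a difference of -0.50 (SE 0.07, adjusted p = 5.94e-05). All 4 arrays numbered 3 lay below the rest for both genes, within 9.12 to 9.15 for Col16a1. Col18a1, whose values are given with rotenone, was lower by 0.54 (SE 0.08, adjusted p = 1.78e-04). Among the members with a genotype difference, the number 3 arrays were lower for Col4a5 by 0.81 (adjusted p = 0.0022), for Col7a1 by 0.73 (adjusted p = 5.92e-04), for Col14a1 by 0.56 (adjusted p = 0.0058) and for Col10a1 by 0.94 (adjusted p = 0.0034).

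For these 4 genes the size of the number difference depended on the genotype, as the separate fits show. On WT arrays alone it was -0.31 for Col4a5, -0.33 for Col7a1 and -0.14 for Col14a1, none of them called, and on KO arrays alone it was -0.24 for Col10a1, not called. Across members, the WT rotenone array numbered 3 was the highest of the 4 arrays with that number for 10 of the 13 lower members. The share over all probe sets is not given. In deviations from the group means over all probe sets, this array correlated at 0.51 to 0.66 with the other arrays numbered 3. Those correlated at 0.64 to 0.83 among themselves. Whether the pattern is particular to collagen genes was not tested. Fitted on part of the arrays, 8 members were called on WT arrays alone (12.9% of all probe sets), 17 on KO arrays alone (20.6%), 14 on vehicle arrays alone (13.7%) and 5 on rotenone arrays alone (6.55%).

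**Figure D5:**
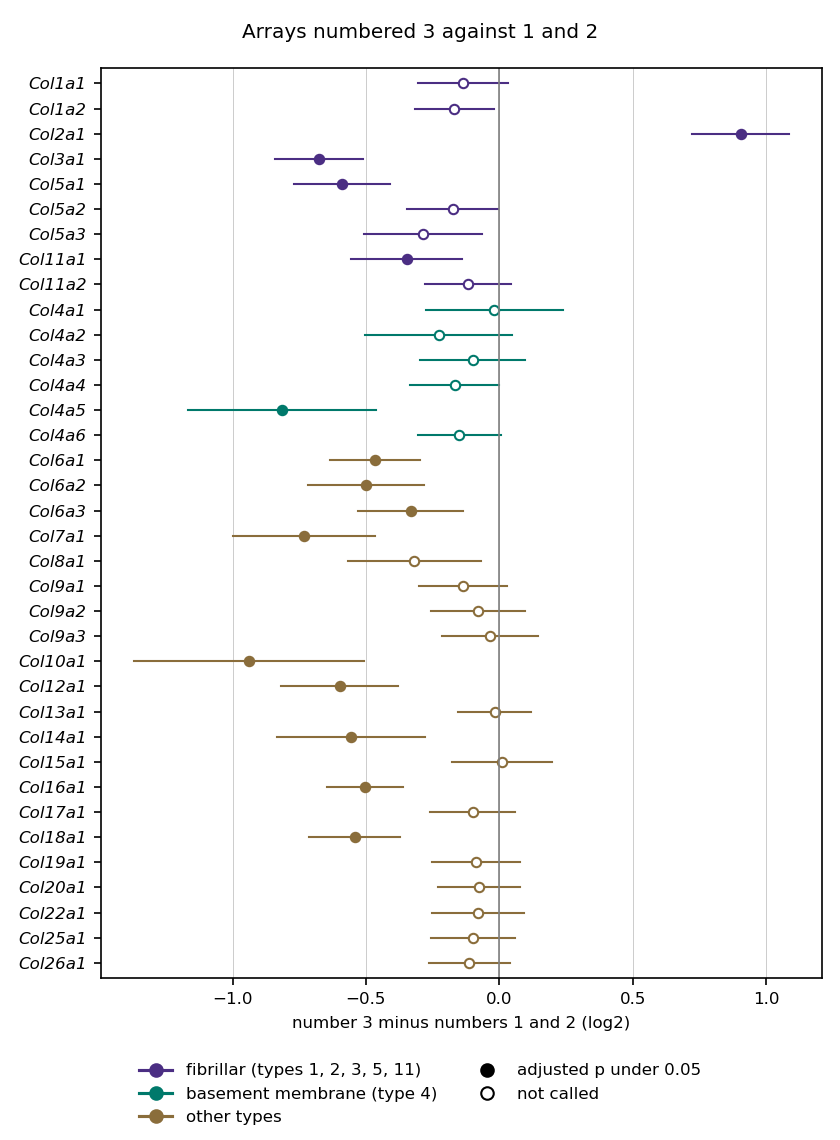
Log2 difference between the 4 arrays numbered 3 and the 8 numbered 1 and 2 (points), with 95% interval (lines), for the 36 collagen genes in the fit of group and number. Filled points mark an adjusted p under 0.05. Col2a1 is the only one called above 0, at 0.90, and the 13 called below 0 run from -0.33 for Col6a3 to -0.94 for Col10a1.

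The remaining 6 members kept within narrow ranges. Col25a1 and Col13a1, which encode membrane-spanning collagens, ran from 8.13 to 8.38 and from 5.51 to 5.69 over the 12 arrays. Col9a3 ran from 7.67 to 8.10, Col17a1 from 4.36 to 4.71, Col19a1 from 5.67 to 6.003 and Col26a1 from 4.99 to 5.37. These members showed neither a genotype nor a rotenone call, and their differences on number 3 lay between -0.11 for Col26a1 and -0.02 for Col13a1.

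Genes that act on collagen were set beside the chains on number 3 as well, where 12.6% of all probe sets were higher and 11.3% lower. Of 12 hydroxylation and glycosylation genes 2 were higher, P3h4 (0.51) and P4ha2 (0.36), a subunit of prolyl 4-hydroxylase, and 0 were lower. Of 18 folding and secretion genes 0 were higher and 2 lower, Creb3l2 (-0.25) and Kdelr2 (-0.29). Of 7 propeptide processing genes, the proteinase enhancers went apart, Pcolce lower by 0.35 and Pcolce2 higher by 0.41. None of 5 crosslinking genes was called.

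Of 19 partners of the fibril, 9 were lower, 1 was higher and 9 were not called on number 3, beside the same 11.3% lower and 12.6% higher of all probe sets. The lower ones included osteoglycin (Ogn, -1.54), Dpt (-1.19), the microfibril gene Fbn2 (-1.13), Thbs2 (-0.62), fibronectin (Fn1, -0.40) and periostin (Postn, -0.41), and the higher one was Lum (0.97). Of 15 basement membrane partners 1 was higher (Fbln1, 0.25) and 1 lower (Lamc1, -0.36). Of 7 receptors, 3 were lower, with the discoidin receptor Ddr2 at -0.60 and the endocytic receptor Mrc2 at -0.75, and 2 were higher. Of 14 breakdown genes, 5 were higher, including the collagenases Mmp13 (1.86) and Mmp14 (0.47), and 3 were lower, including Mmp2 (-0.57) and Ctsk (-0.52). Of 33 regulators of collagen genes, 5 were higher, with Tgfb2 at 0.76, and 6 were lower, with Klf4 at -0.92, beside 12.6% and 11.3% of all probe sets.

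Markers of other cell types also differed on number 3, beside the same 12.6% higher and 11.3% lower of all probe sets. Of 11 leukocyte markers 7 were higher, with the lysozyme gene Lyz2 at 2.26, and the list's mean level was 6.54 to 6.75 on numbers 1 and 2 and 7.04 to 7.14 on number 3. Ptprc, the common leukocyte antigen, was dim, at 5.19 on numbers 1 and 2 and 5.32 on number 3. Of 7 adipocyte markers 3 were higher (Fabp4, 1.85; Adipoq, 1.24; Lpl, 1.21), with list means of 6.18 to 6.36 and 6.74 to 7.05. Of 11 skeletal muscle markers 5 were higher, with list means of 6.39 to 6.57 and 6.78 to 6.87, and of 11 epithelial markers 3 were, Krt8 (0.73), Krt18 (1.03) and Krt19 (1.04), with list means of 6.40 to 6.61 and 6.68 to 7.01. Endothelial markers had 2 lower of 11, osteoblast markers 1 higher of 5, and fibroblast markers 3 higher and 4 lower of 14. Arrays have no true 0, so absence of a marker could not be read. The part of these markers in the collagen differences was not tested.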

How the data were processed

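Gene expression was measured on 12 arrays of primary mouse embryonic fibroblasts, 3 for each of 4 groups. The authors deposited log2 values made with RMA, per the submitters' processing notes. The sources used here do not give the version or settings of RMA. RMA brings array distributions together, so a change shared by most genes would be hidden. Array medians were 7.53 to 7.58 and correlations between arrays 0.982 to 0.997. The number of arrays limits the precision, since depth has no counterpart here.

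Of 22690 probe sets, 64 controls were left out and 22626 entered two-sided tests (functions lmFit and eBayes of limma 3.58.1, under R 4.3.3), with Benjamini-Hochberg adjustment over all of them and a threshold of 0.05. The platform annotation gave 20380 probe sets 1 symbol, 691 several and 1555 none. The main fit had 4 group means. The replicate number as a block was an alternative. All 18 pairs of arrays with the same number deviated together (r of 0.29 or more). This separates number 3 from numbers 1 and 2 but cannot show that numbers 1 and 2 are paired. Deviations balance within a group, so with number 3 apart, numbers 1 and 2 tend to deviate together either way. Most correlations within number 1 or 2 exceeded the matching ones between these numbers, but some did not. The labels do not state a pairing, so the block and the pair counts assume it for numbers 1 and 2. The number contrast was fitted with group and number. Genes were named by this rule: members called in any contrast, all fibrillar and type 4 members, and the 6 other members with the largest genotype, rotenone or number difference; of the gene lists, called members were given first. The members and all 19 gene lists (274 entries) were chosen with earlier results of these data known. Tests were checked on simulated data. A minimum recovery of added changes was required there of the fit with the block and of the number contrast, but not of the main fit. Alternatives left out arrays, numbers or dim probe sets, averaged probe sets, rescaled arrays or changed the variance prior. Promoters are from RefSeq GRCm38.p6; the sources used here do not name the build of the array annotation.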

Additional observations from a re-analysis of the deposited data

Results flagged for a closer look

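For 6 collagen genes the genotype difference, KO minus WT, differed between the arrays numbered 3 and those numbered 1 and 2, by a test of that difference in a fit added after the values were seen. The change from numbers 1 and 2 to number 3 was -0.70 for Col4a1 (SE 0.16, adjusted p = 0.0281) and -0.72 for Col4a2 (SE 0.17, adjusted p = 0.0421). For Col4a5 it was -1.01 (SE 0.19, adjusted p = 0.0085). For Col7a1 it was -0.81 (SE 0.14, adjusted p = 0.0034) and for Col14a1 -0.83 (SE 0.14, adjusted p = 0.0040). For Col10a1 it was 1.39 (SE 0.17, adjusted p = 2.18e-04). A second probe set of Col14a1 gave only -0.23 (adjusted p = 0.5204). What the replicate numbers stand for is not given in the labels.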

How the results depend on the processing

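No called value changed its sign under any alternative run, but several counts of called members move. With the replicate block the genotype count (mean over treatments) was 1 in place of 0, and no other count changed. With numbers 1 and 2 only and the replicate block, the genotype counts were 3 with vehicle, 6 with rotenone and 6 for the mean. With the replicate block and 1 array numbered 3 left out, added after seeing the data, the genotype count was 2 without the WT vehicle array and 3 without the WT rotenone, KO vehicle or KO rotenone array. Leaving out 1 array or 1 number without the block gave 0 to 3 with vehicle, 0 to 3 with rotenone and 0 to 4 for the mean, where the high values are those without number 3. The rotenone counts and the count for the difference in response were 0 to 0. For number 3 against 1 and 2, the count of 14 ran from 13 to 18 over left-out arrays and was 0 for number 2 against 1, 8 in WT arrays (12.9% of all probe sets), 17 in KO arrays (20.6%), 14 in vehicle arrays (13.7%) and 5 in rotenone arrays (6.55%). In the fit by genotype and number the count on numbers 1 and 2 ran from 3 to 6, and for the change between both sets from 2 to 7. Signal over background is unknown, so differences of the 8 dim members, and of Col10a1, whose KO values are dim, may be understated.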
